A study of Mus musculus with 18 samples.

Results

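The mitochondrial ribosomal proteins were followed as the 76 genes of the deposited table whose symbol begins with Mrpl or Mrps and a digit, among 12558 genes in all. By symbol, 47 belong to the large subunit (Mrpl) and 29 to the small subunit (Mrps). Each of the 76 passed the filter on low values, at least 1 CPM in at least 3 libraries, as did 12524 genes of the table. CPM is the deposited scale of reads per gene, set for library size. By background knowledge, Mrps30 and Mrps18a sit in the large subunit in spite of their symbols, and Mrps36 has also been described as part of the oxoglutarate dehydrogenase complex. All 3 were counted here by symbol.

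The mitochondrial ribosome makes the few proteins encoded in mitochondrial DNA, which are core subunits of the respiratory chain and ATP synthase. Its RNAs come from mitochondrial DNA, whereas its proteins are encoded in the nucleus, made in the cytosol and imported. The small subunit reads the messenger RNA and the large subunit forms the peptide bond. Part of the proteins have bacterial counterparts and the rest are particular to mitochondria. Muscle is rich in mitochondria and depends on this machinery for its oxidative capacity.

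Skeletal muscle RNA was sequenced in 18 mouse libraries, 3 for each of 6 groups. Wild type mice ate normal chow or a high fat diet (HFD) for 10 weeks, and 1 group on each diet drank water with AQ, a name used here as it stands in the labels. The last pair of groups, both on HFD, were Nurr1 transgenic mice (Nurr1-mTg) and their wild type controls. Nr4a2 encodes NURR1, a nuclear receptor of the NR4A family, and the series asks what its activation in muscle does to energy balance. The sources used here give neither the transgene's promoter nor the mice's age, sex and litter. The muscle sampled is named no further than skeletal muscle. The labels number the libraries as biological replicates and give no cage, litter or sequencing run.

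The libraries held 10404895 to 16082994 recovered reads. Nr4a2 lay at 18.8 to 30.1 CPM in the 3 transgenic libraries and at most 4.79 CPM in the other 15. The tissue label was checked with 13 markers of muscle fibres, which summed to 141590 to 199044 CPM in every library, with none at 0. Libraries also differed in ways that followed the groups. Genes with a higher GC content read lower in each of the 9 libraries of chow, HFD and HFD with AQ (slopes of -0.16 to -0.01 on the log2 scale per 10 percentage points of GC) and higher in each of the 9 libraries of chow with AQ, the transgene controls and Nurr1-mTg (0.03 to 0.09). The sum of 5 satellite cell markers split the same way, at 24.4 to 29.5 CPM in the first 9 libraries and 32.6 to 40.0 in the other 9. Such a sum follows its most abundant genes. Between chow with AQ and chow, the median log2 fold change of the 5 was 0.06, with 4 above 0. Only Cdh15 among them had a limma adjusted p under 0.05. The 3 comparisons that use chow with AQ cross this split of the libraries, and the other 3 lie within a set. What lies behind the split was not tested. In bulk RNA, fewer cells of a type and less RNA per cell cannot be told apart.

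The sequences shown are parts of 4 RefSeq promoters (GRCm38.p6). Those of Mrpl46, Mrpl9 and Mrps9 stand first because these members had the smallest p-values in the comparison with the most calls. That of Mrps22 is shown because it had the smallest p-value of any member between Nurr1-mTg and control muscle. Each run is the stretch before the transcription start that overlaps no annotated exon, 5′ to 3′ on the gene's strand. Capitals mark a match to a searched motif. They lie at chr7:78783090-78783118 (minus strand), chr3:94443086-94443317 (plus), chr1:42850983-42851232 (plus) and chr9:98601680-98601929 (minus).
Mrpl46: gcccctcgccggcccgcgttgcctcatgg
Mrpl9: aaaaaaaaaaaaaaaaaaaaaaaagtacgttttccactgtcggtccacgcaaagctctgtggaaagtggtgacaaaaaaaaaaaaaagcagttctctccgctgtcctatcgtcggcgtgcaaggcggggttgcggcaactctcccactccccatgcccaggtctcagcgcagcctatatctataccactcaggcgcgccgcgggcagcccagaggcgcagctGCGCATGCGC
Mrps9: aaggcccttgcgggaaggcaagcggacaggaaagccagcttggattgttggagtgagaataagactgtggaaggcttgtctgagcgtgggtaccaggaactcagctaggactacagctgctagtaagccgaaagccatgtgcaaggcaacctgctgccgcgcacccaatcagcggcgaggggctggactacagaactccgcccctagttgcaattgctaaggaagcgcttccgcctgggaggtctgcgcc
Mrps22: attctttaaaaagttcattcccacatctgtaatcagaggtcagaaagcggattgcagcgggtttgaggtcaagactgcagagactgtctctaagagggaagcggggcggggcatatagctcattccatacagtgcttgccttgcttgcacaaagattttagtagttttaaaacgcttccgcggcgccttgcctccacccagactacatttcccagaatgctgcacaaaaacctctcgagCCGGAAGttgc

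The Mrpl46 run is the 29 bases just before its RefSeq start. Its first printed base lies next to the start of the GENCODE model of Mrps11, a small subunit gene on the other strand. The GENCODE model of Mrpl46 starts further upstream than the RefSeq one, so the run lies within that model. In Mrpl9 the capitals mark a site for NRF1, a regulator of nuclear genes for mitochondria, beginning 28 bases before the start. In Mrps22 they mark a core for ETS factors such as GABP, beginning 11 bases before the start. RefSeq promoters of 300 bases, 250 before and 50 after the start, were found for 67 of the 76 members, 73 promoters in all. Searching both strands, the NRF1 motif, GCGCA followed directly by TGCGC, was present in 3 of the 73 (4.11%), in Mrpl9, Mrpl32 and Mrpl39, against 2.00% of promoters of genes in the table and 0.971% of all 32851. The ETS core CCGGAAG was present in 25 (34.2%), against 16.7% and 8.86%. A YY1 motif, GATGGCG, was present in 8 (10.96%), against 6.09% and 3.49%. The sites for NR4A receptors (AAAGGTCA) and for ERR (TCAAGGTCA), which share their last letters and can overlap, were found in none of the 73, against 0.976% and 0.27% of promoters of genes in the table and 1.51% and 0.423% of all. The 73 had a median GC content of 58.3% against 52.7% in all promoters. These are matches of letters in a fixed window and describe no binding.

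Mean levels over the 18 libraries ran from 10.0 to 116 CPM for Mrpl genes and from 0.856 to 85.6 CPM for Mrps genes. Per length, Mrpl genes had a median level of 28.8 CPM per kb (4.63 to 176) and Mrps genes 19.6 (1.35 to 89.4). The length is the median over a gene's annotated coding transcripts, so the order also depends on the annotation. The highest of the large subunit were Mrpl42 (176 CPM per kb), Mrpl30 (112) and Mrpl33 (90.4), and the lowest Mrpl47 (4.63), Mrpl19 (6.49) and Mrpl57 (8.02). Mrpl19, with a length of 5000 bases, had a mean of 32.5 CPM before division, against 10.0 CPM for Mrpl22. In the small subunit Mrps21 (89.4), Mrps18a (71.4) and Mrps23 (64.3) led, and Mrps36 (1.35), Mrps5 (4.19) and Mrps35 (4.31) came last. The 3 Mrps18 paralogs had Mrps18a at 71.4, Mrps18b at 19.6 and Mrps18c at 20.1 CPM per kb. The ranges of the last pair over libraries overlapped (16.7 to 25.7 and 15.5 to 23.4), and whether they differ was not tested.

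**Figure D1:**
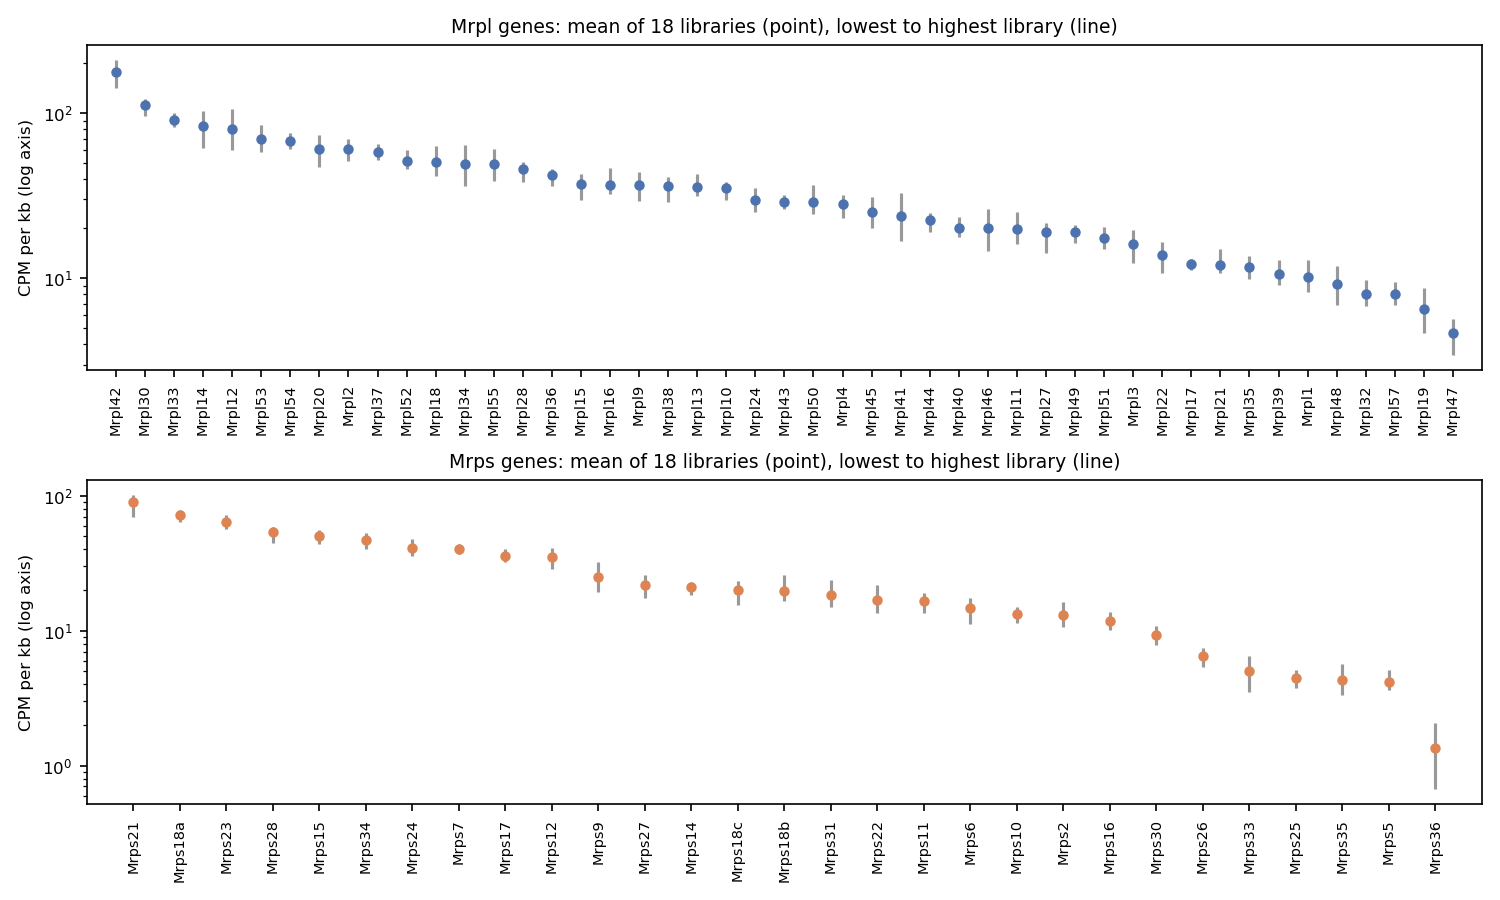
Level of each mitoribosomal gene in CPM per kb of transcript on a log axis, Mrpl genes above and Mrps genes below, ordered by mean, with points for the mean of 18 libraries and lines from the lowest to the highest library. Mrpl42 leads at 176 CPM per kb, and Mrps36 lies at 1.35, below every other gene.

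Per library Mrps36 was at 0.423 to 1.31 CPM, where the lowest value rests on 6 reads, so its changes are the least precise of the members. The ratio of the highest to the lowest of the 18 libraries had a median of 1.44 for Mrpl genes and 1.40 for Mrps genes, against 1.65 for all genes tested. These ratios were not matched for level. The widest ranges on the log2(CPM + 1) scale were those of Mrpl41, Mrpl19 (a ratio of 1.88) and Mrpl46 (1.81) in the large subunit and of Mrps35 (1.70), Mrps9 and Mrps36 (3.11) in the small one. The members are short, with median lengths of 1230 (Mrpl) and 1063.5 (Mrps) bases against 2780 for all genes tested, and had a median GC content of 50.1% and 49.7% against 50.8%.

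Across the groups, many members shared the same lowest and highest group. The mean was lowest in chow with AQ for 47 of 76 members (61.8%), 32 of 47 Mrpl and 15 of 29 Mrps, against 16.5% of all genes tested. It was highest in HFD with AQ for 36 (47.4%), against 21.0%. No member had its highest mean in chow with AQ, against 15.2% of all genes tested. With the transgene pair left out, 5 members (6.58%) had it there, against 30.0%. Their summed level was 2689 ± 168 CPM (SD, n = 3) in chow with AQ and 3103 ± 50.5 CPM in HFD with AQ. It was 2918 ± 178 in chow, 3051 ± 243 in HFD, 2845 ± 184 in the transgene controls and 2919 ± 89 in Nurr1-mTg.

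The mean deviation of Mrpl genes from their average over the 18 libraries, on the log2(CPM + 1) scale, was -0.17, -0.04 and -0.19 in the libraries of chow with AQ and 0.08, 0.10 and 0.10 in those of HFD with AQ. These groups did not overlap. Untreated libraries spread more widely, at 0.10, 0.01 and -0.10 on chow and 0.10, 0.18 and -0.05 on HFD. The transgene controls lay at -0.13, 0.05 and -0.05 and Nurr1-mTg at -0.04, 0.05 and 0.01. Mrps genes had the same order of groups in a narrower band. Chow with AQ was at -0.13, 0.03 and -0.11, and HFD with AQ at 0.06, 0.10 and 0.02, so that here 1 library of chow with AQ lay within the HFD range.

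**Figure D2:**
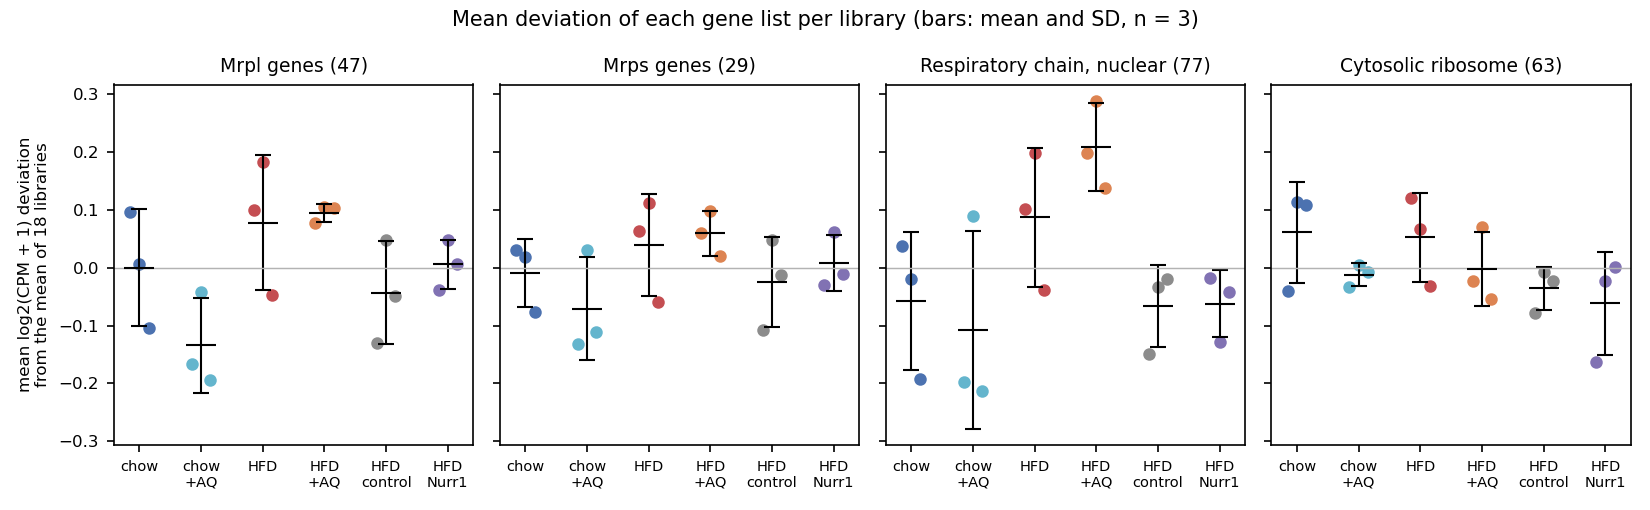
Mean deviation of each gene list from its 18-library mean, on the log2(CPM + 1) scale, for every library, with bars for the group mean and SD (n = 3), in Mrpl genes, Mrps genes, nuclear-encoded respiratory chain and ATP synthase genes, and cytosolic ribosomal protein genes. For Mrpl genes the 3 libraries of chow with AQ (-0.19 to -0.04) lie below the 3 of HFD with AQ (0.08 to 0.10).

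All tests used limma on log2(CPM + 1) with adjusted p-values over the 12524 genes, and fold changes are on that scale with their standard error (SE). The SE of a member's fold change had a median of 0.10 (0.06 to 0.17), and 0.14 for the difference between AQ effects. Comparisons share groups: chow, chow with AQ, HFD and HFD with AQ each enter 3 of the 6. They are therefore given side by side and not as support for each other.

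The comparison of HFD with chow under AQ held most of the changes. In it 12 of the 76 members rose and none fell at an adjusted p of 0.05, or 15.8% of members, where 10.6% of all genes tested were called in either direction and 4.89% were called higher. Of the 12, 10 were Mrpl genes and 2 Mrps genes. The median log2 fold change was 0.20 for Mrpl and 0.14 for Mrps genes against -0.002 over all genes tested, and 66 of 76 members lay above 0 (49.6% of all genes). The 3 libraries of each group did not overlap for 34 members that were higher and 3 that were lower on HFD, where 15.8% and 17.4% of all genes did the same. At an unadjusted p under 0.05, 32 members were higher and none lower, against 12.1% and 13.3% of all genes.

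Mrpl46, a large subunit protein with no bacterial counterpart, changed most. It was at 23.7, 27.9 and 26.7 CPM in HFD with AQ and 16.6, 18.3 and 16.5 CPM in chow with AQ. Its fold change was 0.58 ± 0.10 (1.49-fold, limma adjusted p = 0.00149). The lowest library on HFD thus stood above the highest on chow. The gene lies at chr7:78775236-78783531 (GRCm38, minus strand) and shares 413 bases at its start with Mrps11 in GENCODE. Reads in that stretch cannot be told apart without strand. Mrps11 was at 17.98 ± 2.12 CPM in HFD with AQ and 15.5 ± 1.08 in chow with AQ (0.20 ± 0.09, limma adjusted p = 0.204).

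Mrpl9, the counterpart of a bacterial large subunit protein, read 68.6, 70.0 and 71.2 CPM in HFD with AQ and 56.0, 56.2 and 48.0 in chow with AQ (0.39 ± 0.08, limma adjusted p = 0.00734). Its HFD values lay within a narrow band well above the chow values. Mrpl9 lies at chr3:94443318-94451130 and overlaps Oaz3 on the other strand. Mrpl42, a large subunit protein particular to mitochondria and the most abundant member per length, read 119.5, 134 and 138 CPM against 93.9, 116 and 94.8 (0.36 ± 0.09, limma adjusted p = 0.0203). The second library of chow with AQ came close to the HFD range. Mrpl3, whose bacterial counterpart lies near the peptidyl transferase centre, read 53.6, 55.0 and 56.5 CPM against 38.9, 43.4 and 39.1 (0.44 ± 0.11, limma adjusted p = 0.0205).

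The other called genes of the large subunit were Mrpl50, Mrpl16, Mrpl20, Mrpl18, Mrpl39 and Mrpl13, with fold changes of 0.26 to 0.34 and limma adjusted p-values of 0.0244 to 0.0496. Mrpl50 and Mrpl39 are particular to mitochondria, and the other 4 have bacterial counterparts. In all 10 called Mrpl genes the groups did not overlap. Mrpl13 and Mrpl18 overlap Mtbp and Tcp1 on the other strand. In the small subunit Mrps9, the counterpart of a bacterial protein, read 44.5, 45.9 and 43.2 CPM in HFD with AQ against 29.2, 36.7 and 27.4 in chow with AQ (0.51 ± 0.12, limma adjusted p = 0.0111). Mrps31, particular to mitochondria, read 30.3, 29.9 and 35.9 CPM against 22.6, 24.5 and 26.7 (0.37 ± 0.09, limma adjusted p = 0.0203). Neither small subunit gene overlapped between the groups.

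**Figure D3:**
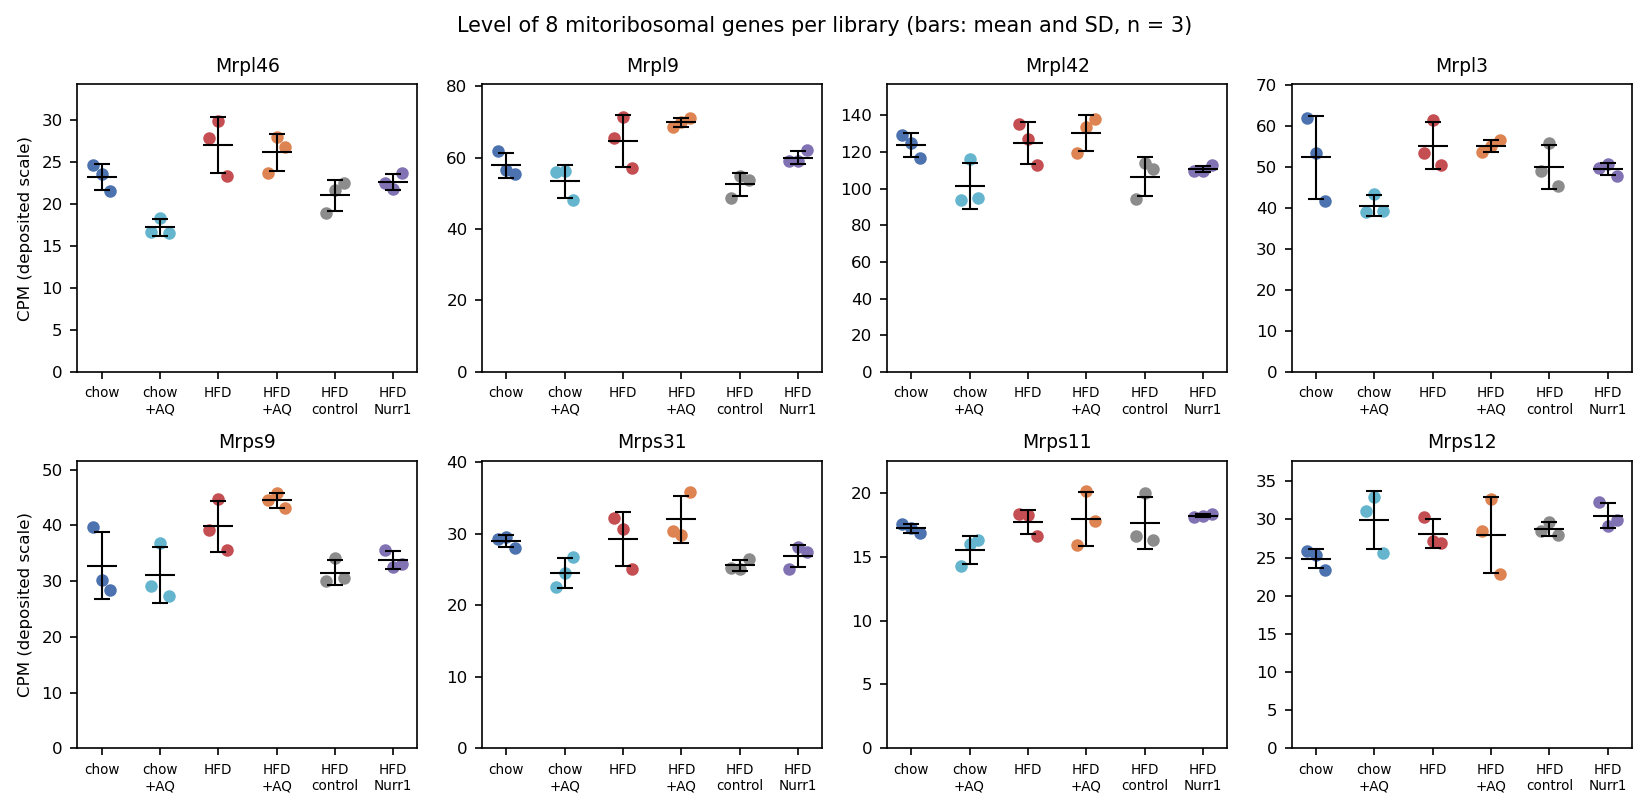
CPM of 8 mitoribosomal genes in each library by group, with bars for the mean and SD (n = 3). Mrpl46, Mrpl9, Mrpl42, Mrpl3, Mrps9 and Mrps31 passed the threshold between HFD and chow under AQ, whereas Mrps11, the neighbour of Mrpl46, and Mrps12 did not.

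Just outside the threshold were Mrpl19 (0.44, limma adjusted p = 0.0504), Mrpl12, a protein of the ribosomal stalk (0.44, limma adjusted p = 0.0575), Mrpl48 (0.35, 0.0628) and Mrpl47 (0.45, 0.0641). Just inside was Mrpl13 (0.29, limma adjusted p = 0.0496). Mrpl19 and Mrpl48 overlap Gcfc2 and Rab6a on the other strand. Mrpl47 overlaps Actl6a and Ndufb5, and Ndufb5 was itself called higher between HFD and chow under AQ. The smallest limma adjusted p among Mrps genes after Mrps9 and Mrps31 was that of Mrps23 (0.25 ± 0.09, 0.0720). The count of called members therefore cuts through a run of similar fold changes. Members lower on HFD whose groups did not overlap were Mrps18a (51.6 ± 2.45 against 55.3 ± 2.31 CPM), Mrps15 (47.1 ± 0.458 against 50.1 ± 0.779) and Mrps2 (25.34 ± 1.067 against 27.7 ± 1.39). Their limma adjusted p-values were 0.446 to 0.524.

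The number of called members rested on single libraries. It was 2 without replicate 1 of chow with AQ and 3 without its replicate 3, 5 without replicate 2 of HFD with AQ and 4 without its replicate 3. Over all genes the calls then numbered 645, 573, 919 and 602 in place of 1324. With the GC trend of each library removed 14 members were called, and only 8 of them were among the 12. Over all genes 982 were called in that setting. Those of the 12 no longer past the threshold included Mrps31 (limma adjusted p = 0.0577). Sums of cell type markers also moved with this comparison. Leukocyte markers (8 of 10 in the table) summed to 183 to 262 CPM in chow with AQ and 139 to 148 in HFD with AQ, and satellite cell markers to 35.2 to 38.8 and 24.4 to 26.0. The 13 fibre markers summed to 166611 to 186143 and 142380 to 152039 CPM, with none at 0. Of these 13, 3 had fold changes above 0, and Mb and Des were called, 1 higher and 1 lower. Adipocyte markers summed to 2656 to 2715 and 2156 to 2619 CPM, smooth muscle markers to 142 to 156 and 106 to 125, and the 1 erythroid marker in the table to 5.37 to 9.65 and 2.55 to 4.34. In these 6 lists the sums did not overlap between groups. A sum follows its most abundant genes: of the 10 adipocyte markers, 4 had fold changes above 0 and none was called. Fibroblast and matrix markers summed to 1774 to 2323 CPM and 1429 to 1923, with groups that overlapped. Of these 8 markers 4 were called, 3 lower and 1 higher on HFD, with a median log2 fold change of -0.55. Csf1r (leukocyte), Cdh15 (satellite cell), Acta2 (smooth muscle) and Alas2 (erythroid) were called lower, and Erg (endothelium) higher. Brown adipocyte markers (4 of 6 in the table) summed to 525 to 663 and 636 to 790, with groups that overlapped. The brown adipocyte list holds Cox7a1, also counted in the respiratory chain list below, which was called higher, as was Cidea. Its sum is therefore no measure of brown adipocytes alone. The part of these lists in the result was not tested.

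With AQ on chow, Mrpl46 fell (-0.41 ± 0.10, 0.75-fold, limma adjusted p = 0.0470), from 24.6, 23.5 and 21.5 CPM on chow to 16.6, 18.3 and 16.5 CPM with AQ. It was the only member called (1.32% of members, where 1.11% of all genes tested were called in either direction and 0.271% lower), and the groups did not overlap. Of the 76 members 60 lay below 0 and 48.3% of all genes lay above it, with a median of -0.12 for Mrpl and -0.07 for Mrps genes, against -0.007 over all genes. At an unadjusted p under 0.05, 16 members were lower and 1 higher, where 6.77% and 8.74% of all genes were. Groups did not overlap for 19 members lower and 1 higher with AQ, against 8.97% and 10.9% of all genes.

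Next to Mrpl46 stood Mrpl11, whose bacterial counterpart forms the base of the stalk. It read 48.3, 40.8 and 42.8 CPM on chow and 31.1, 37.0 and 34.0 with AQ (-0.36 ± 0.09, limma adjusted p = 0.0719). Mrpl27 read 15.06, 15.45 and 14.96 CPM on chow and 13.1, 12.6 and 10.8 with AQ (-0.30 ± 0.09, limma adjusted p = 0.119). In both the groups were apart, yet neither passed the threshold. Among Mrps genes the smallest p-values were those of Mrps31 (-0.23 ± 0.09), Mrps16 (-0.21 ± 0.09) and Mrps18c (-0.27 ± 0.12), with limma adjusted p-values of 0.248 to 0.276. Mrps12, whose bacterial counterpart sits at the decoding centre, was the member higher at an unadjusted p under 0.05. It read 25.8, 25.3 and 23.4 CPM on chow and 31.1, 32.9 and 25.6 with AQ (0.25 ± 0.11, limma adjusted p = 0.282), with groups that overlapped.

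The Mrpl46 call on chow was lost in 8 of the 14 alternatives that kept all libraries and whenever a library was left out (limma adjusted p = 0.0511 to 0.170 then). Calls over all genes for AQ on chow also changed between settings, from 139 to 17 with the GC trend removed. They numbered 12 with only the groups compared and 144 with a pseudocount of 4, where the Mrpl46 call was lost too. Leukocyte markers summed to 133 to 140 CPM on chow and 183 to 262 with AQ, and satellite cell markers to 24.6 to 29.5 and 35.2 to 38.8. H2-Aa and H2-Eb1 of the leukocyte list and Cdh15 of the satellite cell list were called higher with AQ. Endothelium markers summed to 312 to 406 and 408 to 489 CPM, with Vwf and Cldn5 called higher with AQ, and the erythroid marker to 3.02 to 4.20 and 5.37 to 9.65. These groups did not overlap, with no marker in the table at 0 in all libraries of either group. Their part in the result was not tested.

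**Figure D4:**
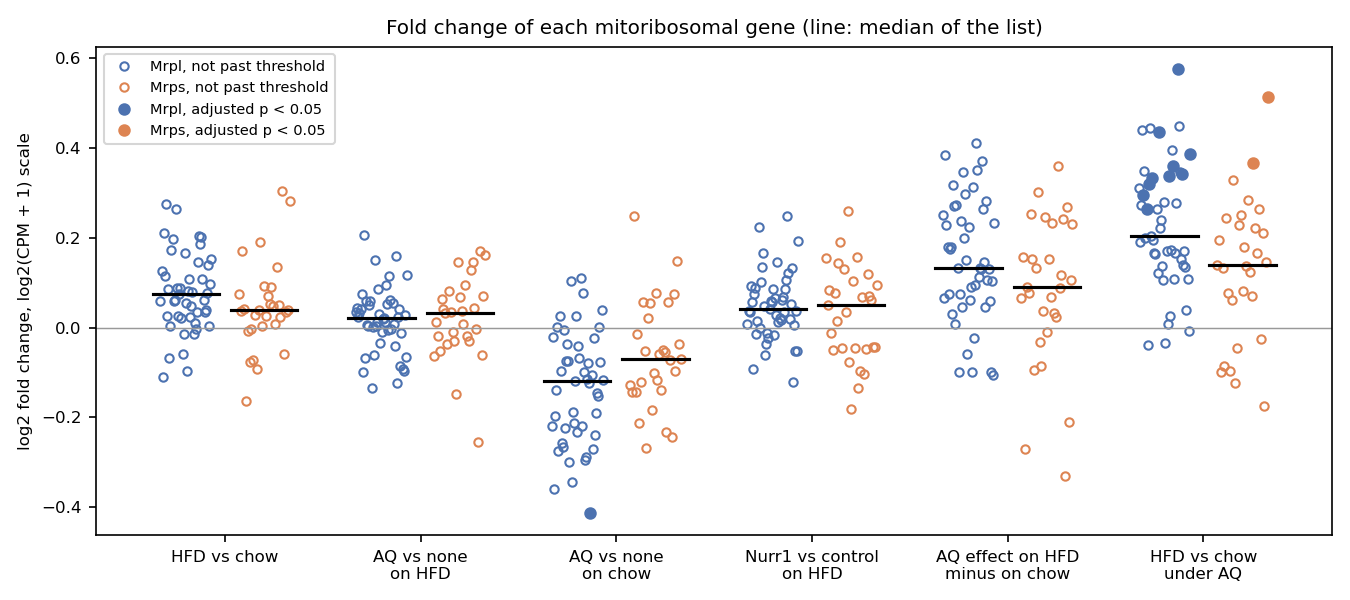
Log2 fold change on the log2(CPM + 1) scale of each Mrpl gene (blue) and Mrps gene (orange) in the 6 comparisons, filled where the adjusted p is under 0.05, with lines for the median of each list. Medians run from -0.12 (Mrpl, AQ on chow) to 0.20 (Mrpl, HFD against chow under AQ), and 12 filled points stand in the latter comparison.

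Whether AQ acted differently on the diets was tested as the difference between its effects. No member passed the threshold (0.711% of all genes did), and the smallest limma adjusted p was 0.194. Fold changes were above 0 in 63 of 76 members (51.3% of all genes), with medians of 0.13 for Mrpl and 0.09 for Mrps genes and 0.007 over all genes. In this and the other comparisons the members share the same libraries, so their signs are not separate observations. At an unadjusted p under 0.05, 8 members were higher and none lower, where 5.69% and 8.44% of all genes were. The smallest p-values belonged to Mrpl11 (0.38 ± 0.13), Mrpl46 (0.37 ± 0.14) and Mrpl42 (0.35 ± 0.13) among Mrpl genes, and Mrps31 (0.36 ± 0.13), Mrps23 (0.25 ± 0.12) and Mrps16 (0.25 ± 0.13) among Mrps genes. For no single member did the test show that the AQ effects differed.

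HFD against chow without AQ called no member, and 0.0479% of all genes were called. At an unadjusted p under 0.05, 4 members were higher and 1 lower, against 5.01% and 4.52% of all genes. Groups did not overlap for 6 members higher and 1 lower on HFD (6.32% and 6.1% of all genes). Medians were 0.07 (Mrpl) and 0.04 (Mrps) against -0.003 over all genes, and 62 of 76 members lay above 0 (49.2% of all genes). Mrpl2, a counterpart of a bacterial protein of the peptidyl transferase region, read 62.7, 68.8 and 60.1 CPM on HFD and 56.6, 56.5 and 53.5 on chow (0.20 ± 0.08, limma adjusted p = 0.458). Mrpl22 read 11.89, 11.29 and 11.03 CPM against 8.80, 10.3 and 8.92 (0.26 ± 0.12, limma adjusted p = 0.496). Both were apart between groups without passing the threshold. Mrps15 ran the other way, at 47.2, 46.8 and 41.4 CPM on HFD and 52.0, 51.3 and 48.5 on chow (-0.16 ± 0.07, limma adjusted p = 0.471). Mrpl46 was at 27.0 ± 3.38 CPM on HFD and 23.2 ± 1.56 on chow, and Mrps9 at 39.8 ± 4.59 and 32.8 ± 6.08, with overlapping libraries and limma adjusted p-values of 0.524 and 0.466. Mrps36 was at 1.12 ± 0.278 CPM on HFD and 0.709 ± 0.129 on chow (limma adjusted p = 0.589).

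AQ on HFD called no member (0.0479% of all genes), with 2 higher and none lower at an unadjusted p under 0.05 (5.15% and 6.62% of all genes). Groups did not overlap for 4 members higher and none lower with AQ, against 7.39% and 8.91%, and 49 of 76 members lay above 0 (50.5%). Medians were 0.02 and 0.03 for Mrpl and Mrps genes, against 0.002 over all genes. Mrpl16 read 47.6, 49.6 and 54.3 CPM with AQ and 44.9, 44.7 and 41.2 without (0.21 ± 0.07, limma adjusted p = 0.254). Mrpl28 read 48.9, 51.8 and 53.2 CPM against 44.9, 48.6 and 44.7 (0.15 ± 0.07, limma adjusted p = 0.410). In both genes, which have bacterial counterparts, the libraries with AQ stood above those without. Mrpl9 (69.9 ± 1.28 against 64.7 ± 7.30 CPM), Mrps23 (94.9 ± 0.439 against 85.96 ± 8.08) and Mrps5 (20.7 ± 2.13 against 18.4 ± 2.81) came next, with limma adjusted p-values of 0.551 to 0.630. Mrps36 was at 0.772 ± 0.176 CPM with AQ and 1.12 ± 0.278 without, at the edge of detection (-0.26 ± 0.17, limma adjusted p = 0.608).

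Between Nurr1-mTg and control muscle no member was called (0.599% of all genes), with 2 higher and none lower at an unadjusted p under 0.05 (4.36% and 4.59% of all genes). Groups did not overlap for 5 members higher and 1 lower with the transgene, against 6.99% and 7.35%. Medians were 0.04 for Mrpl and 0.05 for Mrps genes against -0.001 over all genes, and 53 of 76 members lay above 0 (49.7% of all genes). Fold changes ran from -0.18 to 0.26. Mrps22, particular to mitochondria, read 20.3, 26.3 and 19.9 CPM in Nurr1-mTg and 17.8, 19.1 and 17.7 in controls (0.26 ± 0.11, limma adjusted p = 0.469). The second transgenic library stood well above the other two. Mrpl9 read 59.0, 59.1 and 62.0 CPM against 48.7, 54.9 and 53.8 (0.19 ± 0.08, limma adjusted p = 0.491). Mrps18a, of the 3 Mrps18 paralogs, read 58.7, 57.6 and 56.0 CPM against 49.6, 56.9 and 49.5 (0.14 ± 0.07, limma adjusted p = 0.607). Mrps10 (0.16 ± 0.08), Mrpl47 (0.25 ± 0.15) and Mrpl19 (0.22 ± 0.14) came next, with limma adjusted p-values of 0.633 to 0.711.

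The genes that work with the mitochondrial ribosome were taken by list, and their counts stand beside the 10.6% of all genes called in the comparison under AQ (4.89% called higher). The counts of 1 or 2 genes below are not read as more than that share. Between HFD and chow under AQ, 4 of 15 translation factors rose and none fell, with a median of 0.23. They were Mtif2, an initiation factor (0.43), Gfm1, an elongation factor, Guf1 (0.44) and Taco1, a translational activator (0.51). Of 26 assembly and rRNA modification genes, Trub2 (0.49 ± 0.08, limma adjusted p = 0.000971) and Mterfd2 (0.42 ± 0.11, limma adjusted p = 0.0190) rose and none fell. Trub2, a pseudouridine synthase, was also called in the difference between AQ effects (0.50 ± 0.11, limma adjusted p = 0.0470), the only gene of these lists that was. Among 6 mitoribosomal proteins with other symbols Ptcd3 rose (0.45 ± 0.11, limma adjusted p = 0.0191). Of 16 genes for mitochondrial DNA and RNA, 4 rose and none fell (Tfam, Lrpprc, Pnpt1 and Supv3l1). Among 22 genes for aminoacyl-tRNA synthetases and the charging of tRNA, Rars2 rose (0.27 ± 0.08) and Kars fell (-0.31 ± 0.06). Kars serves both the cytosol and mitochondria.

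Of 11 regulators of nuclear genes for mitochondria, Ppard fell (-0.33 ± 0.09, limma adjusted p = 0.0208), and the others were not called. In the other comparisons none of these 6 lists held a called gene, apart from Trub2 above. The respiratory chain and ATP synthase list moved more than the mitoribosome in the comparison under AQ, since 41 of its 77 genes rose and none fell, with a median of 0.32. Ndufs1 (0.56 ± 0.09), Ndufb3 (0.48 ± 0.09) and Uqcrc2 (0.57 ± 0.11) were among them. Of 63 cytosolic ribosomal protein genes none was called there, with a median of 0.01, and on chow with AQ Rps7 fell (-0.54 ± 0.13, limma adjusted p = 0.0464). Cytosolic ribosomal protein genes have many processed copies, so their values are uncertain. These medians are descriptions, the differences between lists were not tested, and the lists were not recomputed under other settings.

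Some members share a start region with a gene on the other strand. Taking coding genes whose start lay up to 1000 bases away head to head, or overlapped by up to 200 bases, 23 members had a partner, and 19 of the partners were tested. The pair Mrpl46 and Mrps11, with a longer overlap, falls outside this rule. Between HFD and chow under AQ the partners had a median of 0.10, and Ndufs6, the partner of Mrpl36, was called higher (0.30, limma adjusted p = 0.0413), the only one of these partners called in any comparison. Mrpl36 itself was at -0.03 ± 0.09 (limma adjusted p = 0.860), and their models overlap. This pair was picked after its values were seen. Sars2, a mitochondrial synthetase gene whose start lies 172 bases from that of Mrps12, was at 15.5 ± 1.57 CPM in chow with AQ and 14.8 ± 1.23 on chow (limma adjusted p = 0.824), beside the higher values of Mrps12 above. In all, 23 members overlap a coding gene on the other strand, where reads in the shared stretch cannot be told apart without strand.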

How the data were processed

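Libraries of mouse skeletal muscle RNA (single-end, 50 bases, per the labels' protocols) were mapped with TopHat2 2.0.12 and handled in edgeR, per the submitters' processing notes, which name GRCm38 and mm10. The sources used here name no counting tool, annotation or use of strand. The deposited table holds a scaled signal in CPM per gene and library, whose columns summed to 929993 to 1071538. All values (100% within 1e-06 reads) were whole reads times a factor per library. A gene at 3 reads lay at 0.191 to 0.277 CPM (counting error only).

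The test was limma 3.58.1 in R 4.3.3 with a variance trend, two-sided, on log2(CPM + 1) in a fit of 6 group means (12 residual degrees of freedom), with Benjamini-Hochberg adjustment over all genes tested. It was tested on simulated data. Log2 fold changes understate changes of low genes. edgeR 4.0.16 and DESeq2 1.42.0 on the recovered reads, other pseudocounts (0.25 and 4), filters, scalings, removed GC and length trends, a replicate block and leaving out each library were alternatives. Lengths, GC and coordinates came from GENCODE release M21 (GRCm38).

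Named are members past the threshold, the 3 of each subunit with the smallest p in a comparison, the extremes of level and of range, and the Mrps18 paralogs. The members and lists were chosen with earlier results of these data known. Pairs of replicates differed by more than sampling noise (chi-square per degree of freedom at least 4.22). Replicates measure the spread between these libraries only. The deposited table held no symbol beginning with mt-, and mitochondrially encoded genes were not analysed here.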

Additional observations from a re-analysis of the deposited data

How the results depend on the processing

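The 12 members called between HFD and chow under AQ became 19 with only the groups compared in the fit and 20 with plain CPM. All 12 were kept in both. Over all genes these settings called 1728 and 1208, against 1324. Without 1 library the count of members was 2 to 14. The median of Mrpl genes in that comparison was 0.27 with plain CPM, which moved the median of all genes by 0.06, and 0.1849 to 0.2678 without 1 library. For AQ on chow the count of 1 became 0 with a pseudocount of 4, with only the groups compared, without a variance trend, with plain CPM, with equal medians, with a replicate block and with the GC trend removed, with or without the block, and 2 with DESeq2. DESeq2 called 280 of all genes there. Without 1 library the count of members was 0 to 1. The median of Mrps genes in the difference between AQ effects was 0.16 with plain CPM. The cause of these shifts was not tested. No direction reversed, and in the other 4 comparisons no member was called in any setting. Mrpl46 was called under AQ in all 20 alternatives. Same-numbered libraries correlated at -0.21 to 0.31 in their deviations from group means, which cannot decide whether a number marks a shared batch. The replicate block called 15 members under AQ, with the 12 among them. Over all genes the block called 49 for AQ on HFD, against 6 without it. It called 1418 under AQ against 1324, and 120 for AQ on chow against 139. With 3 libraries a group and a median SE of 0.10, small shifts of single genes are beyond what this depth and number resolve.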
